A study of Mus musculus with 2 samples.

Results

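*Gad1* and *Gad2*, the genes of the enzymes that make the inhibitory transmitter GABA, were 2 of the 500 genes measured by MERFISH in coronal sections of E16.5 mouse brain. Both were taken as named members of the probe panel, without regard to their level. MERFISH reads fluorescent barcodes over rounds of imaging and counts single RNA molecules at their place in the tissue. The control section came from an *Sst-Cre/tdTomato* embryo, and the KO section from an *Sst-Cre/tdTomato/Dnmt1 loxp2* embryo, in which Cre made by cells expressing the somatostatin gene *Sst* deletes the floxed part of *Dnmt1*, a DNA methyltransferase gene. Both embryos thus carried the same Cre driver and the tdTomato reporter, and the deletion is limited to cells that have made *Sst*. Each genotype was 1 section of 10 µm, and the labels name no imaging run. Genotype therefore cannot be told apart from embryo, section or imaging in any comparison below, and no test was possible. Neither *Dnmt1* nor tdTomato was on the panel, so the deletion itself could not be checked.

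The sections held 108533 (control) and 110004 (KO) segmented cells, with 2842355 and 13437174 panel transcripts and a median of 20 and 101 per cell. They had 0 cell identifiers in common. Cells with at least 20 panel transcripts were used, which were 50.9% of control and 92.0% of KO cells. Levels are counts per 1000000 panel transcripts (CPM) summed over the cells concerned, with exact Poisson 95% intervals in brackets. Shares carry exact binomial (Clopper-Pearson) 95% intervals, and neither kind of interval includes the spread between animals or runs, only counting error. Of all 500 genes, *Gad1* ranked 26 in control tissue and 31 in KO tissue by total count, and *Gad2* ranked 56 and 37. Both genes lay far above the blank barcodes, codes assigned to no gene, which reached at most 292 CPM in control tissue and 241 CPM in KO tissue.

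GABA is made from glutamate in a single step by glutamate decarboxylase, which uses pyridoxal phosphate as its cofactor. *Gad1* encodes the isoform GAD67, which stays largely bound to its cofactor and supplies much of the cell's GABA, and *Gad2* encodes GAD65, which is enriched at nerve terminals and synaptic vesicles. In the embryonic forebrain GABAergic cells arise in the subpallium: the lateral ganglionic eminence (LGE) gives rise to the projection neurons of the striatum, and the medial (MGE) and caudal (CGE) eminences to interneurons that migrate into the cortex. The pallium, from which the cortex develops, makes glutamatergic neurons, so that its Gad transcripts are usually ascribed to immigrant interneurons.

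The enzymes are paralogs, but their transcripts share no long run of bases. In GRCm39 with GENCODE vM39, both lie on the plus strand of chromosome 2, *Gad1* (ENSMUSG00000070880) at chr2:70391603-70432372 with 17 exons and *Gad2* (ENSMUSG00000026787) at chr2:22511862-22583886 with 16 exons in their canonical transcripts. Their coding sequences, of 1779 and 1755 bases, were identical at 68.0% of 1730 aligned positions, and the longest run shared was 17 bases. Shown here is the same 91-base exonic stretch of both, centred on the codon of the lysine that holds the cofactor (residue 404 of 593 in *Gad1*, 396 of 585 in *Gad2*). Capitals mark the 24 bases at which the genes differ, and the stretch is chosen because it is the conserved core of the active site and yet holds no shared run as long as a usual hybridization probe. The *Gad1* stretch spans exons 12 and 13 (chr2:70421499-70423850, exonic up to 70421514 and again from 70423776), and the *Gad2* stretch spans exons 11 and 12 (chr2:22559762-22564030, exonic up to 22559777 and again from 22563956).
Gad1: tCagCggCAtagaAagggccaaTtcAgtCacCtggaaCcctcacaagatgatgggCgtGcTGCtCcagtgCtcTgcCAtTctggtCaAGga
Gad2: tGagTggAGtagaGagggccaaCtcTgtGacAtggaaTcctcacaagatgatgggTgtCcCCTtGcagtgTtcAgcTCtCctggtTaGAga
The probe sequences of the panel are not given in the sources used here. The 2 probe sets may also differ in how many molecules they detect, so the *Gad1* share used below, *Gad1* transcripts as a percentage of *Gad1* and *Gad2* transcripts together, is compared between places and cells and is not a ratio of RNA molecules.

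Both genes marked out the subpallium in both sections. The pallial and subpallial regions were outlined from other genes, among them *Tbr1*, *Fezf2* and *Slc17a7* for the pallium and *Lhx6*, *Isl1*, *Ebf1* and *Drd1* for the subpallium. *Gad1* stood at 16842 CPM (16540 to 17148) in the control subpallium and 13084 CPM (12982 to 13187) in that of the KO section. In the pallium it stood at 2973 CPM (2833 to 3119) and 2493 CPM (2443 to 2544), which made the subpallium 5.66-fold and 5.25-fold higher. The subpallium held 71.7% of all *Gad1* transcripts of each section.

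*Gad2* was distributed with a steeper contrast between the regions. It stood at 7926 CPM (7719 to 8136) in the control subpallium and 11936 CPM (11838 to 12034) in that of the KO section, and at 1163 CPM (1076 to 1256) and 1454 CPM (1415 to 1493) in the pallium. The subpallium was thus 6.81-fold (control) and 8.21-fold (KO) higher than the pallium, and held 69.7% and 77.8% of all *Gad2* transcripts. In every hemisphere of both sections each gene was higher in the subpallium than in the pallium. The hemispheres of the control subpallium differed from each other, at 14879 and 17909 CPM for *Gad1* and 8165 and 7796 CPM for *Gad2*. Those of the KO lay closer together, at 12762 and 13381 CPM for *Gad1* and 11528 and 12311 CPM for *Gad2*.

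**Figure D1:**
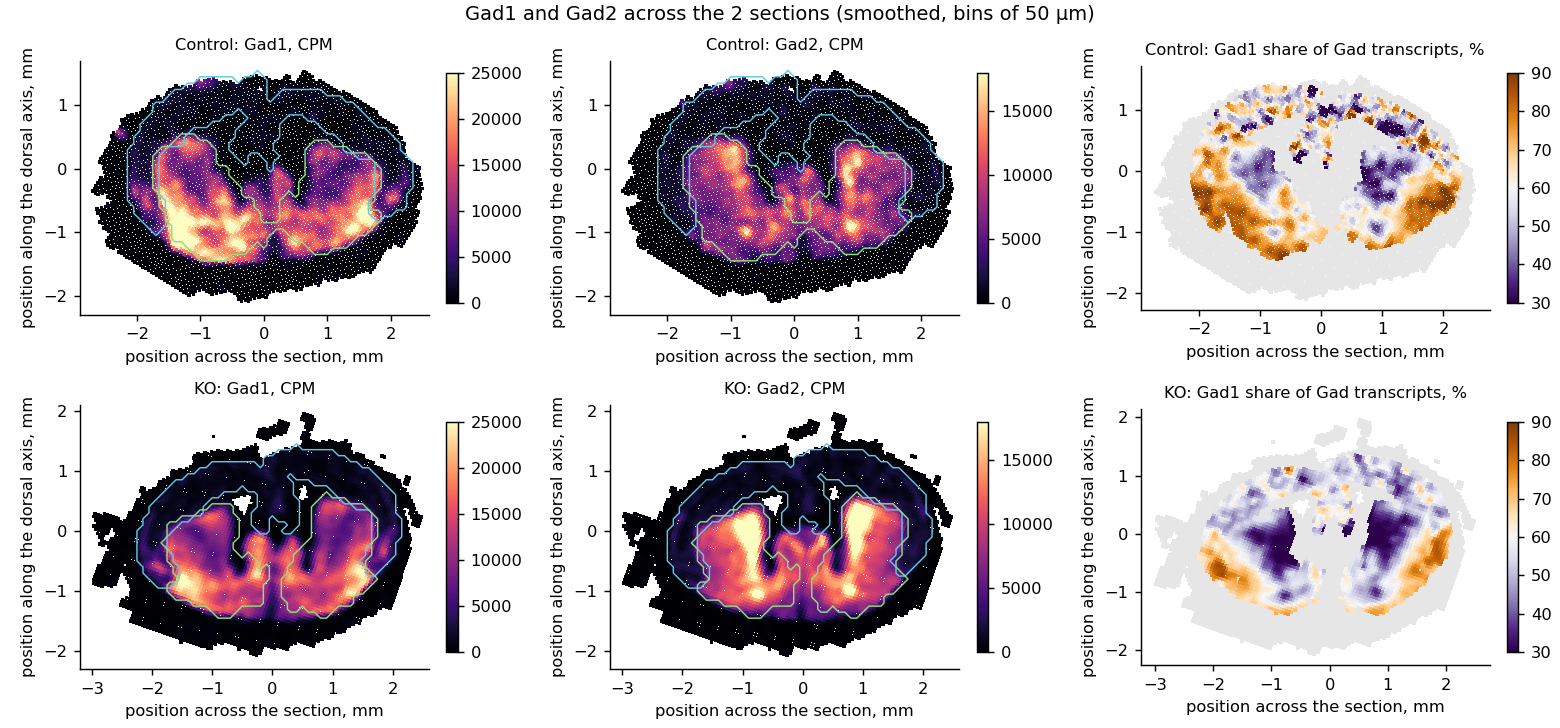
*Gad1* level, *Gad2* level (both CPM) and *Gad1* share (percent of *Gad1* and *Gad2* transcripts) over the control (top) and KO (bottom) section. The pallial region is outlined in blue and the subpallial region in green, and both axes are in mm. Both genes are highest inside the green outline, where the KO section holds 71.7% of its *Gad1* and 77.8% of its *Gad2* transcripts.

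The *Gad1* share was higher in the pallium than in the subpallium. It was 71.9% in the control pallium and 63.2% in the KO pallium, against 68.0% and 52.3% in the subpallium. By hemisphere, the control pallium gave 72.3% and 71.7% and the control subpallium 64.6% and 69.7%. The KO pallium gave 62.7% and 63.7% and the KO subpallium 52.5% and 52.1%. The values of pallial and subpallial hemispheres did not overlap within either section. Control intervals did, with 68.6 to 75.8 and 69.5 to 73.8 in the pallium against 68.8 to 70.5 in the higher subpallial hemisphere. The control hemispheres of each region also lay above the KO hemispheres of that region.

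Within the subpallium the genes changed along the dorsoventral axis in different ways. The cells of the region were divided into 5 equal groups from dorsal to ventral, an axis added after the maps had been seen. Dorsal here means toward the pallium, along the line from the centre of the subpallial to that of the pallial region. Cells were ranked on it within each hemisphere, and no anatomical labels were used. *Gad1* in the control was 10666 CPM in the most dorsal group, 12508, 17719 and 21094 CPM in the next ones and 20259 CPM in the most ventral. KO values ran from 10131 over 9442, 11365 and 17779 to 16050 CPM. *Gad1* was thus highest in the 2 ventral groups of both sections.

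*Gad2* did not rise along this axis. From dorsal to ventral it was 9212, 7532, 7452, 8795 and 6860 CPM in control tissue and 14677, 13182, 10258, 11293 and 10906 CPM in KO tissue. The most dorsal group was the highest in 3 of 4 hemispheres. In the other, a control one, the fourth group was at 9319 CPM against 8639 CPM in the most dorsal. The *Gad1* share therefore climbed from 53.7% (51.7 to 55.7) to 74.7% (73.4 to 76.0) in control tissue and from 40.8% (40.2 to 41.5) to 59.5% (59.0 to 60.1) in KO tissue. Each of the 4 hemispheres showed this direction: the control ones went from 52.3% to 70.3% and from 54.4% to 76.8%, and the KO ones from 40.0% to 59.0% and from 41.5% to 60.0%. *Ebf1*, a gene of the striatal direct pathway, fell along the same groups from 12038 to 642 CPM in control tissue. In KO tissue it was 14934 CPM in the most dorsal group, highest in the second at 19755 CPM and 1414 CPM in the most ventral, while *Lhx6*, which MGE-derived cells express, went from 3128 to 19025 CPM (control) and from 1749 to 19347 CPM (KO). Position and the makeup of cell types thus changed along this axis together.

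**Figure D2:**
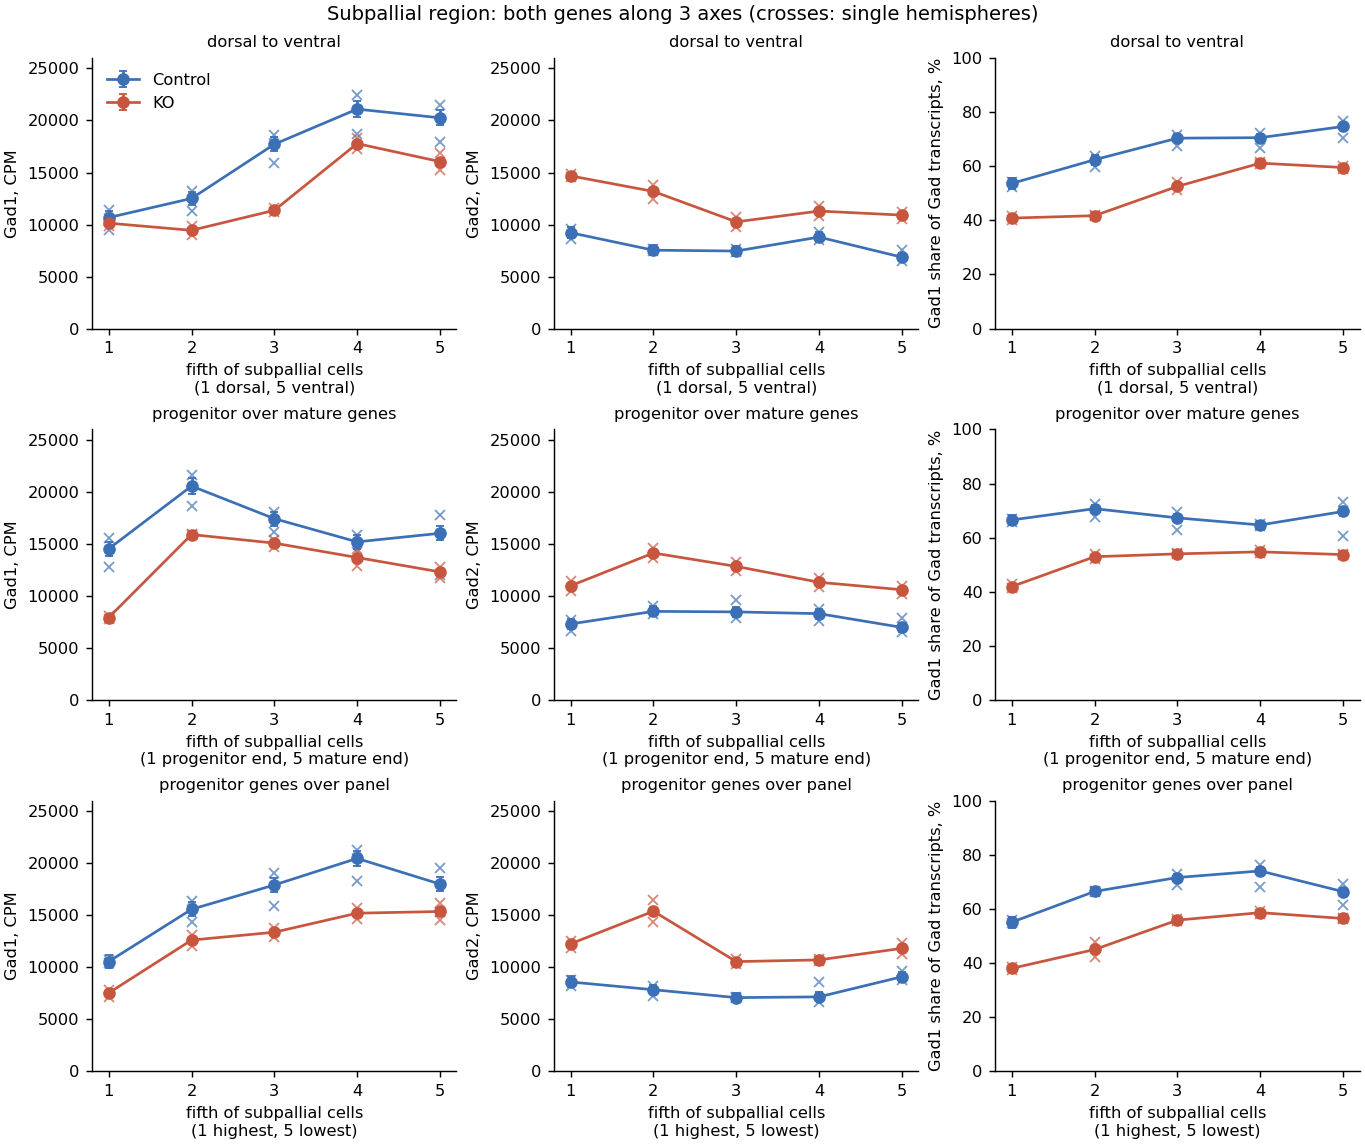
*Gad1* level, *Gad2* level (CPM) and *Gad1* share (percent) in 5 equal groups of subpallial cells, ordered from dorsal to ventral (top row), by progenitor genes over progenitor and mature genes (middle) and by progenitor genes over all panel transcripts (bottom). Circles are sections with 95% counting intervals and crosses are single hemispheres. The *Gad1* share climbs from dorsal to ventral in both sections, from 53.7% to 74.7% in the control.

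From progenitor to mature zones, the change of the *Gad1* share depended on how the zones were drawn. Zones were first ordered by an index, the transcripts of 5 progenitor genes (among them *Ccnd2*, *Top2a*, *Sox9* and *Egfr*) over those of the progenitor genes and 11 genes of differentiating striatum. In the KO section the share was 41.9% in the zone at the progenitor end and 53.0%, 54.0%, 54.8% and 53.7% in the zones after it. The progenitor end minus the mature end was −11.8 percentage points (−13.2 to −10.4), and the hemispheres gave −12.6 and −10.8 points. In the control the zones gave 66.5%, 70.7%, 67.3%, 64.7% and 69.7%. The same difference was −3.13 points (−6.49 to 0.23), and the control hemispheres differed in its direction, with −6.12 points in one and 5.27 points in the other.

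The control zone at the progenitor end held different territories. Its 1910 dorsal cells had a *Gad1* share of 50.4%, while 892 ventral cells had one of 79.7%. Within the 2 dorsal groups of subpallial cells, taken after this had been seen, the progenitor end minus the mature end was −14.4 points in control tissue and −11.8 points in KO tissue. The 2 ventral groups did not show this course. Their share was 79.7%, 74.7%, 68.5%, 68.0% and 84.5% from the progenitor to the mature end of the control, whose last zone held 173 cells, and 57.2%, 65.1%, 57.4%, 60.1% and 60.1% in KO tissue.

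When zones were instead ordered by the progenitor genes over all panel transcripts, also added after seeing the data, both sections gave the same direction. The share was 55.1% in the group of cells with the highest progenitor level and 66.5%, 71.7%, 74.1% and 66.4% in the following ones of the control. The KO section gave 38.1%, 45.0%, 55.9%, 58.7% and 56.5%. The group highest in progenitor genes had the lowest share of the 5 in each section, with hemispheres at 55.9% and 54.7% (control) and 37.6% and 38.5% (KO). This came with a low *Gad1* level, 10553 against 18001 CPM at the other end in control tissue and 7534 against 15365 CPM in KO tissue. *Gad2* stood at 8588 CPM in control tissue and 12259 CPM in KO tissue where progenitor genes were highest, and at 9090 and 11821 CPM where they were lowest.

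Single cells were then assigned to classes by their marker transcripts, with neither Gad gene among the markers. A cell needed at least 3 transcripts of at least 2 markers of a class. By this rule 60.8% of control and 38.1% of KO cells were left without a class. The classes are called by the markers that chose them. In each of the 14 classes used, at least 3 of the markers were among the 10 genes highest over other cells, except in the subcortical glutamatergic class of the control, in which 2 were. A class chosen by *Eomes* alone, which held only 7 control cells, is not described.

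*Gad1* was high in cells marked by MGE interneuron genes (*Lhx6*, *Sst*, *Npas1*). These stood at 22341 CPM (20464 to 24345, 437 cells) in control tissue and 19258 CPM (18837 to 19687, 2380 cells) in KO tissue. Cells marked by indirect-pathway striatal genes (*Drd2*, *Adora2a*, *Penk*, *Gpr6*) followed at 20992 CPM (18865 to 23294) and 16805 CPM (16332 to 17287). In the control the intervals of these 2 classes overlapped, and in the KO section they did not. Cells marked by direct-pathway genes (*Isl1*, *Ebf1*, *Drd1*, *Chrm4*, *Tac1*, *Rxrg*) stood at 13912 CPM (13149 to 14707) and 10771 CPM (10593 to 10952). Cells marked by CGE or LGE interneuron genes stood below them in control tissue, at 9282 CPM (7482 to 11383), and above them in KO tissue, at 12981 CPM (12505 to 13471). Only 19.2% and 14.0% of these CGE or LGE cells lay in the pallium and 23.1% and 25.7% in the subpallium, so most lay outside both regions. Those in the subpallium stood at 18088 CPM (13036 to 24450, 42 cells) in control tissue and 19196 CPM (17982 to 20471) in KO tissue. Subpallial direct-pathway cells stood at 13924 CPM (13160 to 14720) and 10776 CPM (10598 to 10957), with overlap in the control.

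*Gad2* gave no order among the MGE and striatal classes in the control. It stood at 7414 CPM (6861 to 8001) in direct-pathway, 6647 CPM (5641 to 7779) in MGE and 6209 CPM (5078 to 7516) in indirect-pathway cells. In the KO section the direct-pathway cells stood at 12369 CPM (12177 to 12562), the indirect-pathway cells at 11107 CPM (10724 to 11501) and the MGE cells at 10244 CPM (9937 to 10558). With at least 6 marker transcripts, a stricter rule added later, the KO direct-pathway cells were again above both others, but the indirect-pathway (10434 CPM, 9998 to 10885) and MGE cells (9977 CPM, 9640 to 10324) overlapped. Under the first rule CGE or LGE cells of the whole section had 4944 CPM of *Gad2* (3657 to 6536) in control tissue, below the direct-pathway interval. In KO tissue they had 9467 CPM (9061 to 9887), below all of these classes. In the subpallium alone they had 6891 and 12439 CPM.

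The *Gad1* share separated the striatal classes, but in the control not under the stricter rule. Direct-pathway cells had 65.2% in control tissue and 46.5% in KO tissue, and indirect-pathway cells 77.2% and 60.2%. MGE cells had 77.1% and 65.3%. At the low end stood cells marked by cycling or ventral progenitor genes (among them *Ccnd2*, *Top2a* and *Egfr*), with 44.8% in control tissue and 38.8% in KO tissue. Their *Gad1* level was 2374 and 4375 CPM and their *Gad2* level 2929 and 6912 CPM. Summed over the whole section, it was the class with the lowest share of the 14 in both genotypes. In the pallium alone it had 62.7% in control tissue and 56.1% in KO tissue and was not the lowest.

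**Figure D3:**
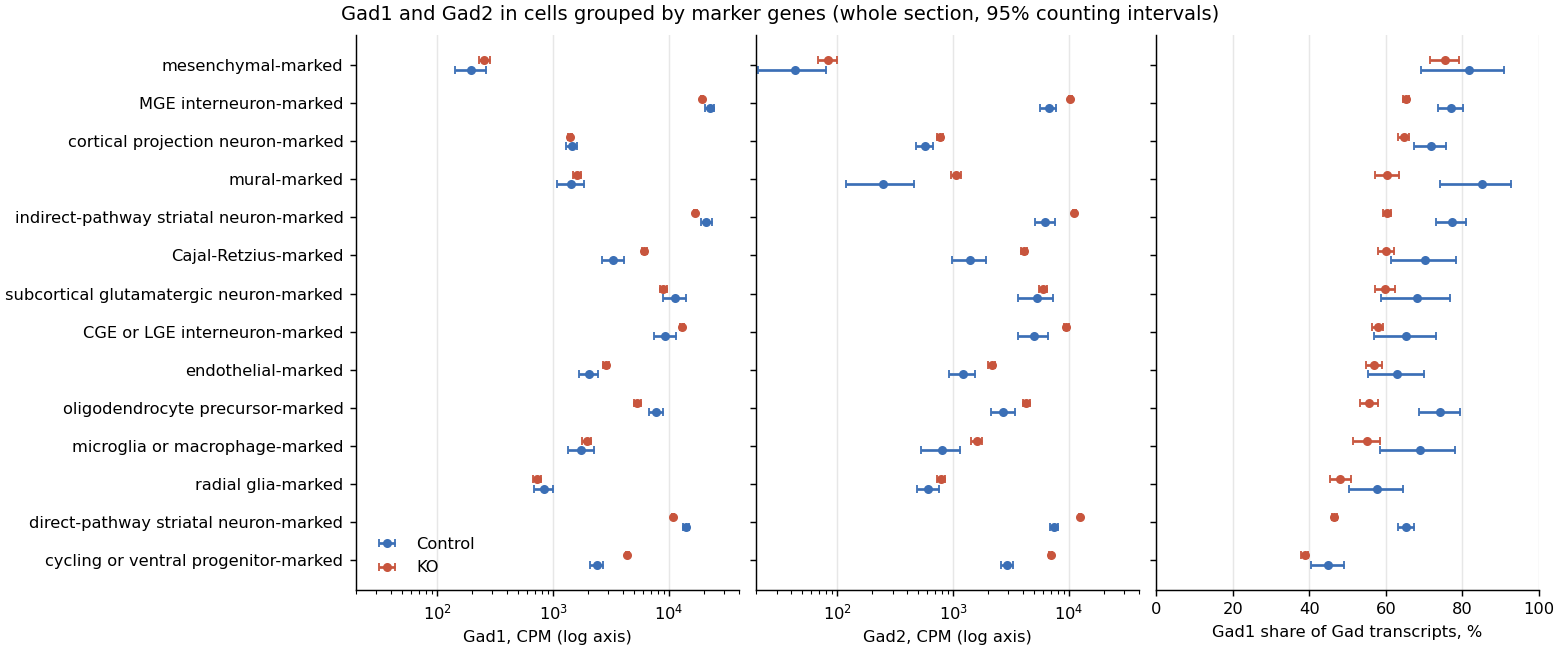
*Gad1* and *Gad2* level (CPM, log axis) and *Gad1* share (percent) in 14 marker-defined classes of the control and KO section, with 95% counting intervals. MGE-marked cells, followed by indirect-pathway cells, have the highest *Gad1* levels, and cycling or ventral progenitor cells the lowest share, 44.8% in control tissue and 38.8% in KO tissue.

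Across the 14 classes the order of shares was similar in the sections, with a Spearman correlation of 0.82 between them. The classes share sections, depth and neighbouring tissue, so this is a description. Summed over the whole section, the KO share was lower in 14 of 14 classes, with KO minus control between −24.8 and −5.86 percentage points. That includes classes not known to make GABA. Endothelial cells went from 62.9% (55.2 to 70.0) to 57.0% (54.9 to 59.1), with overlapping intervals. Cells marked by microglial genes went from 68.8% (58.4 to 78.0) to 55.0% (51.4 to 58.5), again with overlap. Cells marked by cortical projection genes, with 1448 and 1407 CPM of *Gad1*, went from 71.7% to 64.6%, without overlap. The intervals of radial glia, CGE or LGE, subcortical glutamatergic, mesenchymal and Cajal-Retzius cells overlapped between the sections as well. In the pallium alone, oligodendrocyte precursors and Cajal-Retzius cells had a higher share in KO tissue, with overlap.

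The level in cells not known to make GABA was taken as a floor below which a level was not read as expression. Where the transcripts in these cells came from was not tested. Inside the subpallium cells marked by microglial genes (*Csf1r*, *Cx3cr1*, *C1qa*, *Aif1*) had 12983 CPM of *Gad1* (9540 to 17265, 86 cells) in control tissue and 9671 CPM (8402 to 11079, 167 cells) in KO tissue. In the pallium the same class had 1268 and 2087 CPM. Mesenchymal cells (*Dcn*, *Efemp1*, *Osr1*), nearly all outside both regions, had 196 and 256 CPM of *Gad1* and 43.7 and 83.3 CPM of *Gad2*, near or below the level of the highest blank barcode. Within the subpallium the direct-pathway cells, at 13924 and 10776 CPM, thus lay within the microglial interval in both sections, whereas the MGE and indirect-pathway cells lay above it in both. For *Gad2* the subpallial microglial level was 6077 CPM (3809 to 9201) in control tissue and 9625 CPM (8358 to 11029) in KO tissue. The MGE cells of the subpallium, at 6210 and 10853 CPM, lay within that interval in both sections, as did the direct-pathway and indirect-pathway cells of the control, at 7433 and 6357 CPM. KO direct-pathway cells, at 12373 CPM, and indirect-pathway cells, at 11480 CPM, lay above it. Subpallial endothelial cells were lower, with 7854 CPM of *Gad1* (6087 to 9974) and 4689 CPM of *Gad2* (3350 to 6385) in control tissue and 7531 CPM (7008 to 8083) and 6276 CPM (5799 to 6782) in KO tissue. Direct-pathway *Gad1* in both sections and KO MGE *Gad2* lay above the endothelial intervals. Subpallial mural cells had 1221 CPM of *Gad2* (333 to 3125) in control tissue and 6460 CPM (5675 to 7323) in KO tissue, below the MGE and striatal levels given here. Their *Gad1* was 11291 CPM (7950 to 15563) and 8287 CPM (7394 to 9258), and the control interval held the direct-pathway level. Whether these levels pass the background thus depends on the class that sets it.

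The microglial share of *Gad1* in the subpallium was 68.1% in control tissue and 50.1% in KO tissue, close to 68.0% and 52.3% for all cells there. With the stricter rule of at least 6 marker transcripts, subpallial microglial cells still stood at 10857 CPM (6537 to 16955) and 9254 CPM (7841 to 10847) of *Gad1*. KO direct-pathway cells, at 10973 CPM (10788 to 11159), then passed the upper limit of that interval, though the 2 intervals still overlapped. KO microglial *Gad2* was 8462 CPM (7114 to 9992), and KO MGE cells of the subpallium, at 10660 CPM (10254 to 11079), now lay above it. Control indirect-pathway cells then stood at 26040 CPM (20710 to 32323) and MGE cells at 23938 CPM (19434 to 29172), the other way round from the order above and again with overlap. Under that rule the shares were 69.3% and 47.5% in direct-pathway, 75.9% and 62.4% in indirect-pathway, 74.8% and 66.1% in MGE and 45.0% and 39.1% in cycling or ventral progenitor cells. The control intervals of direct-pathway (65.4 to 73.0) and indirect-pathway cells (66.7 to 83.6) then overlapped. Under the first rule progenitor cells of the subpallium, at 5181 and 6557 CPM, lay below the microglial interval for *Gad1*. Their *Gad2*, at 5147 CPM in control tissue, lay within the microglial and endothelial intervals there. In KO tissue it lay above both, at 11279 CPM.

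The dorsoventral difference was also found within classes. Direct-pathway cells had a *Gad1* share of 60.6% (57.9 to 63.3) in the 2 dorsal groups and 75.1% (71.2 to 78.8) in the middle group of the control subpallium. KO direct-pathway cells went from 41.6% over 52.0% to 56.5% in the 2 ventral groups. Indirect-pathway cells went from 76.2% to 78.6% in the control, with overlapping intervals, and from 53.7% over 65.5% to 69.1% in the KO section. In the middle group of the control the indirect-pathway interval (71.2 to 84.8) overlapped the direct-pathway one. KO progenitor cells went from 34.8% over 41.4% to 58.2%. MGE cells of the KO section did not follow it, with 69.5%, 63.4% and 64.5%, nor did its CGE or LGE cells, with 60.4%, 56.8% and 63.1%. Endothelial cells of the KO section rose as well, from 45.5% over 47.3% to 60.8%, while its microglial cells had 50.3% dorsally and 52.0% ventrally, with overlapping intervals. Oligodendrocyte precursors had 76.1%, 76.0% and 78.4% in the control, with overlapping intervals, and rose from 50.5% (43.4 to 57.5) over 57.2% to 61.1% (57.6 to 64.5) in KO tissue. KO mural cells rose from 40.5% over 55.4% to 64.0%. The part that transcripts of neighbouring cells had in these differences was not tested.

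In the pallium both genes were higher near the outer edge than in the middle when hemispheres were joined. In 1 control hemisphere this did not hold for *Gad1*, nor for *Gad2* at the outermost depth. The region was divided into 10 bins of relative depth between an outer and an inner edge. The inner edge faced the largest enclosed space outside the pallial region, which could take in subpallium as well as ventricle. The outer edge was the rest of the border, the line between the hemispheres included. *Gad1* was 3398 CPM in the outer 2 bins, 2750 CPM in the middle 6 and 3800 CPM in the inner 2 of the control. The KO section gave 3082, 2304 and 2631 CPM. *Gad2* followed the same course, with 1665, 972 and 1406 CPM in control tissue and 2185, 1191 and 1837 CPM in KO tissue. The middle levels of both genes lay within the intervals of pallial microglial cells. Those were 465 to 2759 (control) and 1689 to 2551 CPM (KO) for *Gad1*, and 51.2 to 1526 and 796 to 1423 CPM for *Gad2*. For *Gad1* the middle levels lay above the pallial endothelial intervals (891 to 2310 and 1490 to 1971 CPM). In that control hemisphere *Gad1* was 1042 and 2716 CPM in the outer 2 bins and 2337 to 4126 CPM in the middle 6, and the other one gave 3308 and 4832 CPM against 1815 to 3682 CPM. For *Gad2* that hemisphere gave 917 and 1565 CPM in the outer 2 bins and 747 to 1225 CPM in the middle 6. Interneurons are known to enter the cortex along a superficial stream in the marginal zone and a deep one near the subventricular zone.

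The second bin from the outer edge, with cells at a median of 70.7 µm from it, held the outer peak of *Gad2* in all 4 hemispheres. It held that of *Gad1* in 3 of 4. With hemispheres joined, *Gad1* reached 4208 CPM there in control tissue and 3360 CPM in KO tissue, and *Gad2* 1860 and 2314 CPM. At the inner edge the control reached 4685 CPM of *Gad1* in bin 10 (3558 to 6057, 391 cells), against 2739 CPM in the KO section. The control value overlapped its outer peak (3752 to 4703). *Lhx6* was likewise higher in the outer 2 bins, at 5919 and 5952 CPM, than in the middle, at 2697 and 2563 CPM. The *Gad1* share was 67.1% in the outer and 73.9% in the middle bins of the control and 58.5% and 65.9% in the KO section. The inner bins differed between the sections in this respect, with 73.0% (66.3 to 79.0) in control tissue and 58.9% (56.4 to 61.3) in KO tissue.

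**Figure D4:**
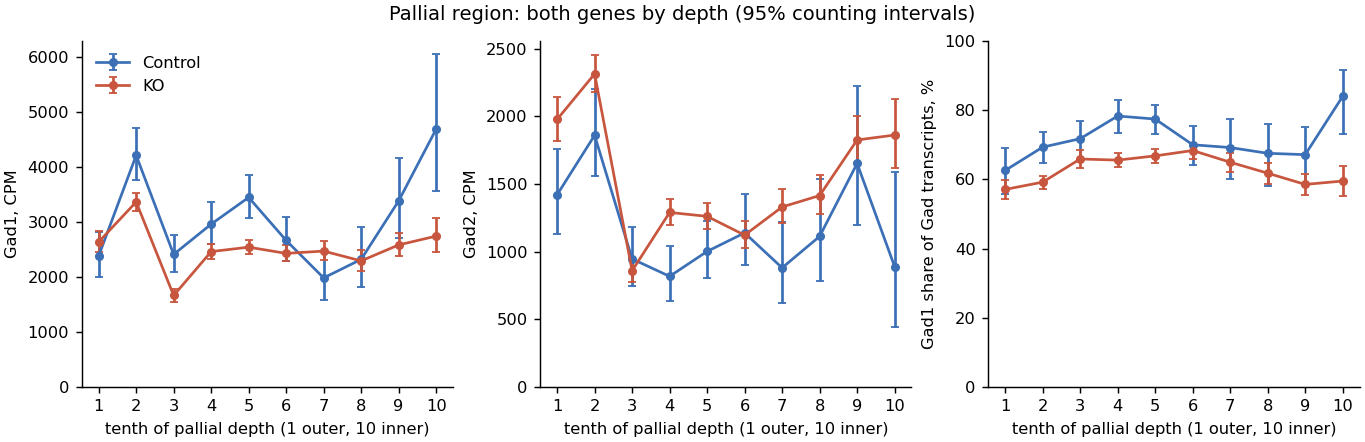
*Gad1* level, *Gad2* level (CPM) and *Gad1* share (percent) in 10 bins of relative pallial depth, for the control and KO section with 95% counting intervals. Bin 1 is at the outer and bin 10 at the inner edge, which may border subpallium as well as ventricle. With hemispheres joined, both genes have an outer peak in bin 2 (absent for *Gad1* in 1 control hemisphere), where *Gad1* reaches 4208 CPM in control tissue and 3360 CPM in KO tissue, and control *Gad1* rises again to 4685 CPM in bin 10.

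Cells of the MGE class were compared between the regions. Their *Gad1* level was 21589 CPM in the pallium and 22089 CPM in the subpallium of the control, and 17891 (17116 to 18693) and 19755 CPM (19252 to 20267) in the KO section. Their *Gad2* level was 7277 and 6210 CPM in the control and 8695 (8158 to 9259) and 10853 CPM (10482 to 11235) in the KO section. KO pallial cells were lower than KO subpallial cells in both genes, and the control intervals overlapped. With at least 6 marker transcripts the KO intervals of *Gad1* overlapped too, at 18740 CPM (17836 to 19678) and 19625 CPM (19071 to 20190). Their share was 74.8% and 78.1% in the control, and 67.3% and 64.5% in the KO section. Cells with a transcript of both *Sst*, the Cre driver gene, and *Lhx6* were also compared. They had 23016 CPM of *Gad1* (20008 to 26349, 137 cells) in the control pallium and 14545 CPM (13994 to 15112, 792 cells) in the KO pallium. The background of *Sst* in single cells was not assessed. The KO cells were deeper, and 1 transcript of each gene was enough to enter the group. With the KO counts thinned at random to the control depth, 122 cells qualified and their level was 21375 CPM (18070 to 25109), which overlapped the control. Their share was 78.9% in the control cells and 78.3% in the thinned KO cells.

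With the same thinning, pallial cells with *Lhx6* but without *Sst* had a share of 68.6% (64.9 to 72.0) in control tissue and 60.3% (56.9 to 63.6) in thinned KO tissue. Among subpallial cells a difference was found with and without *Sst*. Cells with *Sst* and *Lhx6* had 77.3% (73.9 to 80.4) in control tissue and 66.7% (63.2 to 70.0) in the thinned KO section. Cells with *Lhx6* but without a counted *Sst* transcript had 69.1% and 55.2%. Their *Gad1* level was 18454 CPM in control tissue and 14723 CPM in the thinned KO section, and their *Gad2* level was 8264 and 11959 CPM. At this depth a cell without a counted *Sst* transcript may still have made *Sst*. The cause of these differences was not tested.

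Whether the genes were found in the same cells was asked after each cell had been thinned to 25 transcripts. The 11347 control and 1678 KO cells with fewer were left out. Over the whole section 14.6% of control cells had *Gad1*, 8.46% had *Gad2* and 2.40% had both. KO shares were 13.1%, 12.5% and 3.23%. Both together were thus found 1.94 and 1.98 times as often as the product of the single shares gives. On the log2 scale this was 0.96 (0.87 to 1.04) and 0.98 (0.93 to 1.03). Before thinning, 21.1%, 12.8% and 5.72% of these control cells and 33.9%, 33.7% and 22.7% of these KO cells had *Gad1*, *Gad2* and both.

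Most of that excess was absent within small areas. Within bins of 200 µm, a comparison added later, it was 0.093 in control tissue and 0.20 in KO tissue. Among subpallial cells, 31.6% of the control had *Gad1*, 17.8% had *Gad2* and 5.50% had both, and in the KO section 25.4%, 26.3% and 6.93%. The log2 excess was −0.031 (−0.13 to 0.069) and 0.054 (−0.0016 to 0.11), and both intervals included 0. Over 20 repeats of the thinning it ran from −0.078 to 0.040 in control tissue and from 0.0023 to 0.080 in KO tissue. A small excess in the KO section thus remains possible. Of subpallial cells with *Gad1*, 17.4% also had *Gad2* in control tissue and 27.3% in KO tissue. Unthinned, 10.8% of control and 44.8% of KO cells of the subpallium had both, at a median depth of 32 and 103 transcripts.

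Microglial cells gave the background of these shares. Over the whole section, after thinning from a median depth of 52 (control) and 135 (KO) transcripts, 4.55% and 4.04% of them had *Gad1* and 2.02% and 3.48% had *Gad2*. In the subpallium 26.3% and 18.2% of microglial cells had *Gad1* and 13.2% and 21.2% had *Gad2*. Endothelial cells of the subpallium had *Gad1* in 26 of 167 control and 111 of 738 KO cells (intervals of 10.4 to 22.0% and 12.5 to 17.8%). They had *Gad2* in 14.4% and 14.2%. These intervals overlapped the microglial ones for both genes in both sections. Shares of single cells there thus stand on a background of this size in cells that should lack both genes. Microglial cells of the pallium had *Gad1* in 2.38% and 4.86%.

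Over all pallial cells, where Gad transcripts are sparse, the genes were found together more often. *Gad1* was seen in 5.95% of control and 4.67% of KO cells, *Gad2* in 2.62% and 3.09% and both in 0.512% and 0.656%. The log2 excess was 1.71 (1.31 to 2.09) and 2.18 (1.97 to 2.39), and it stayed at 1.34 and 1.82 within bins of 200 µm. Repeating the thinning 20 times moved it between 1.46 and 1.93 in control tissue and between 1.95 and 2.26 in KO tissue. Of KO pallial microglial cells 4.86% had *Gad1* (2.80 to 7.78), which overlaps the percentage for all KO pallial cells, while 0.912% (0.188 to 2.64) had *Gad2*, less than all KO pallial cells. The 816 endothelial cells of the KO pallium had *Gad1* in 2.94% (1.89 to 4.34) and *Gad2* in 2.33% (1.41 to 3.61). In the control pallium 2.38% of 84 microglial cells had *Gad1* (0.290 to 8.34) and 0 had *Gad2*, which allows up to 4.30%, so the control percentages could not be told from the microglial ones at this number of cells. No excess was detectable among pallial cells of the MGE class, at −0.46 (−1.78 to 0.58, 140 cells) in control tissue and 0.015 (−0.43 to 0.43, 733 cells) in KO tissue. Excesses were found in classes not known to make GABA: 2.79 (1.92 to 3.54) in KO microglial cells of the whole section (0.61 within bins), and 2.46 (1.45 to 3.3) in control and 1.67 (0.94 to 2.32) in KO cortical projection cells (1.64 and 0.59 within bins). Cells that mix several neighbours through segmentation would also hold both, and their part was not tested.

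**Figure D5:**
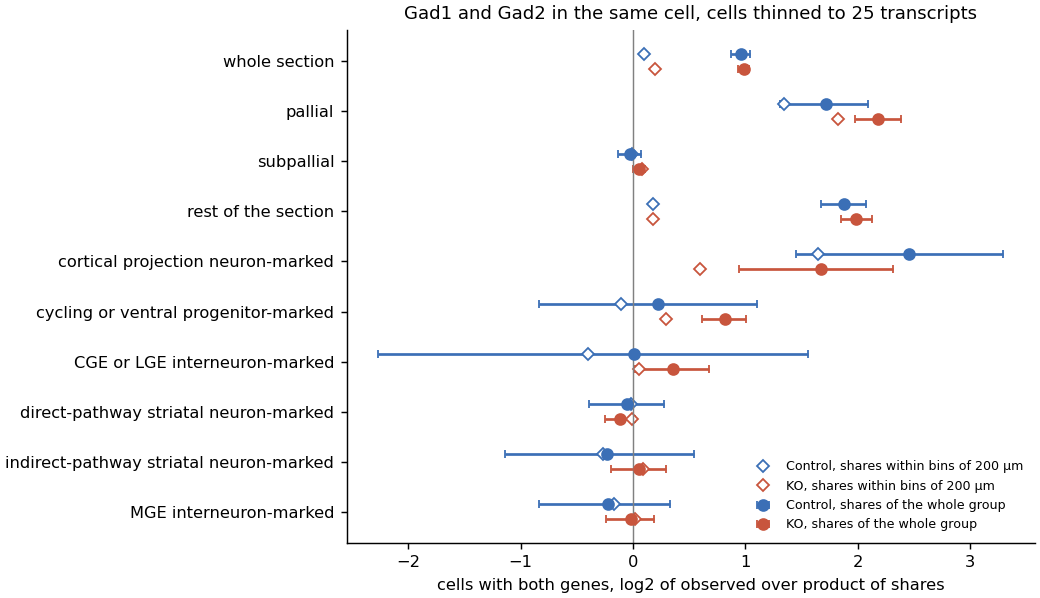
Log2 of the share of cells with both genes over the product of the single shares, after thinning to 25 transcripts. Rows are the whole section, its regions and marker-defined classes (cortical projection, cycling or ventral progenitor, CGE or LGE, direct-pathway, indirect-pathway and MGE). Filled points take the shares of the group (with 95% intervals) and open diamonds the shares within 200 µm bins. The whole section lies near 1, the subpallium near 0 and the pallium at 1.71 (control) and 2.18 (KO).

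At the progenitor end of the KO subpallium the genes also met more often than the single shares give, with 0.46 (0.31 to 0.60), and 0.32 within bins. In the control the value there was 0.05 (−0.24 to 0.32). KO cells of the cycling or ventral progenitor class had 0.31 (0.10 to 0.51) in the subpallium, and 0.16 within bins. Among all subpallial cells *Lhx6* lay at 0.13 with *Gad1* and 0.02 with *Gad2* in the control, and at 0.26 and −0.00 in the KO section.

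Across 200 µm bins of the whole section, 344 in control tissue and 361 in KO tissue, the log2 levels of *Gad1* and *Gad2* correlated with a Pearson r of 0.87 and 0.93. Bins share sections and depth, so these are descriptions. Within the subpallium r fell to 0.18 (120 bins) and 0.49 (131 bins). Across the bins of the whole section the gene most like both was *Slc32a1*, which encodes the transporter that loads GABA into synaptic vesicles. Its mean r over the sections was 0.91 with *Gad1* and 0.90 with *Gad2*. After it came *Plcxd3* (0.83), *Nnat* (0.83), *Oprl1* (0.80) and *Erbb4* (0.79) for *Gad1*, and *Nnat* (0.84), *Erbb4* (0.80) and *Oprl1* (0.80) were among those for *Gad2*. *Erbb4* encodes a neuregulin receptor of migrating interneurons.

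Other genes set the members apart. The correlation with *Gad1* exceeded that with *Gad2* most for *Sphkap* (by 0.17), *Il1rapl2* (0.16) and *Sst* (0.16). It was below that with *Gad2* for *Cxcr4* (−0.17), a chemokine receptor of migrating interneurons, and for *Ddr1* (−0.14), a collagen receptor. The mean r with *Gad1* and *Gad2* was 0.42 and 0.25 for *Sphkap* and 0.61 and 0.45 for *Sst*. The others correlated weakly with both members: 0.03 and −0.13 for *Il1rapl2*, 0.04 and 0.20 for *Cxcr4* and −0.03 and 0.10 for *Ddr1*. Within subpallial bins alone, an addition made later, *Sphkap* also headed the genes closer to *Gad1*. There *Slc32a1* was again most like *Gad1* (0.70), while *Cd24a* was most like *Gad2* (0.63, against 0.47 for *Slc32a1*).

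Between the sections the members moved in opposite directions in the pallium and subpallium. The KO over control log2 ratio of *Gad1* was −0.25 (−0.35 to −0.15) in the pallium and −0.36 (−0.40 to −0.33) in the subpallium. That of *Gad2* was 0.32 (0.17 to 0.47) and 0.59 (0.54 to 0.64). With the highest pairing of hemispheres (−0.12, −0.29 to 0.063) and with KO counts thinned to the control depth (−0.14, −0.27 to 0.00087), the interval of pallial *Gad1* included 0. In the rest of the section both were higher in KO, with 0.17 (0.093 to 0.24) for *Gad1* and 0.42 (0.33 to 0.52) for *Gad2*. These intervals pair opposite ends of both counting intervals. In the pallium neither gene reached 1.5-fold, while 28.8% of the 250 genes in the upper part of the panel by mean level did, in one direction or the other. In the subpallium 1 of 2 did, *Gad2*, against 30.4% of the 250 genes, so neither count stands out from the panel. The *Gad2* ratio lies at the edge of 1.5-fold and fell below it under 7 of 9 alternatives, with 0.38 to 0.58.

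Among these 250 genes *Gad1* lay at the 28.8 percentile of ratios in the pallium and the 27.6 percentile in the subpallium, and *Gad2* at 71.6 and 85.6. The middle 90% of genes ran from −0.93 to 1.01 in the pallium and from −1.01 to 0.99 in the subpallium, around medians of 0.02 and −0.00. Imaging differed between the sections as well: molecules of plane 6, the last of 7 planes, numbered 23.6% of those of plane 0 in control tissue and 43.2% in KO tissue over the panel, and 29.1% and 61.0% for *Gad1* and 24.1% and 53.3% for *Gad2*. Counting plane 0 alone, the subpallial ratio of *Gad2* was 0.38. The part of this imaging difference in the ratios was not tested.

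Of 34 further genes of GABA transport, reception and the interneuron lineage, 8 were on the panel, and some of these are described here. In the subpallium *Dlx1*, a homeodomain gene of subpallial progenitors and interneurons, was past 1.5-fold, with 4039 CPM in control tissue and 7493 CPM in KO tissue (log2 0.89). It and *Lhx6* are among the genes that outlined the region, so their ratios there are not independent of the outline. *Slc32a1* stood at 4986 and 5274 CPM (0.08). The GABA-A receptor subunit genes *Gabra3* and *Gabra5* lay at 0.09 and −0.01. *Lhx6* was at 12968 and 9751 CPM (−0.41). In the pallium none of the genes described was past 1.5-fold, and their ratios ran from −0.07 for *Lhx6* to 0.47 for *Dlx1*. *Slc32a1*, which works downstream of both enzymes, thus lay between *Gad1* and *Gad2* in both regions.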

How the data were processed

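MERFISH was measured with the Vizgen Pan Neuro panel on the MERSCOPE instrument in 1 section per genotype, grouped by the genotype in the labels. The authors used the instrument's decoding and segmentation, and deposited raw counts of molecules per cell and gene, cell positions and the cell volume signal in cubic micrometres, without normalization. The segmentation model and the genome build of the probes are not given in the sources used here. The study's own normalization and cell names were not used.

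The scripts used Python 3.11.15 with pandas 2.3.3, numpy 2.4.6, matplotlib 3.10.9 and scipy 1.17.1. Regions were outlined on a 25 µm grid smoothed with an SD of 50 µm. A pallial bin had over 50% pallial among pallial and subpallial transcripts, and these made up at least 4% of panel transcripts; a subpallial bin needed subpallial genes at 2% or more. Parts under 0.3 mm² and bins under 1 cell were dropped, and scikit-image 0.26.0 gave the hulls for pallial depth. A cell took the class with the highest score, the excess of marker transcripts over their expected number divided by its square root, of at least 3. Hemispheres were split by 2-means. Correlations used bins with at least 500 transcripts and log2 (CPM with a pseudocount of 0.5 counts). Thresholds of outlines and classes were chosen once the maps were known. Named genes were the members, the GABA list, the 5 genes most like each member and the 3 at each end of the difference of the correlations. Some genes under this rule are not reported here. The members and all lists were chosen with earlier results of these data known. Transcript positions and sequences came from GRCm39 with GENCODE vM39 and were used with no coordinates of the sections. The scripts were tested on simulated counts, and no test was run between the groups of 1 section. Intervals cover counting error only.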

Additional observations from a re-analysis of the deposited data

How the results depend on the processing

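No paired analysis was possible because each group is 1 section without a replicate number, and no section could be left out. Each KO over control ratio kept its direction under its 9 alternatives: *Gad1* between −0.46 and −0.12 in the pallium and −0.59 and −0.15 in the subpallium, *Gad2* between 0.19 and 0.46 and between 0.38 and 0.75. Values that moved beyond the counting interval were as follows. Pallial *Gad1* was −0.46 with at least 50 transcripts per cell, −0.12 with the highest pairing of hemispheres and −0.14 with KO counts thinned to the control depth, the last added after seeing the data. Subpallial *Gad1* was −0.30 and −0.59 with at least 10 and 50 transcripts, −0.29 with all decoded molecules, and −0.49 and −0.15 with the lowest and highest pairing of hemispheres. Subpallial *Gad2* was 0.54 and 0.75 with at least 10 and 50 transcripts, 0.50 with all decoded molecules, 0.38 with imaging plane 0 alone, and 0.50 and 0.66 with the lowest and highest pairing. The progenitor minus mature difference of the control *Gad1* share ran from −14.4 to 5.27 points: −9.78 and 2.77 with at least 10 and 50 transcripts, −8.27 in plane 0, 5.27 in the higher hemisphere, and, added after seeing the data, −14.4 in the 2 dorsal of 5 groups of cells and −11.3 with zones by progenitor gene level. In the KO section all 12 alternatives were negative, with −17.8 in plane 0, −13.5 without *Ccnd2* and −18.5 with zones by progenitor gene level. The same-cell excess of the control was 1.31 with cells thinned to 50 transcripts, 1.08 without thinning, −0.031 in subpallial cells and 0.093 within 200 µm bins, and that of the KO section 0.054 and 0.20 under the last 2. The cause of these shifts was not tested. Control depth limits the class values, which rest on 45 to 1244 *Gad1* transcripts a class.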
